A study of Elaeis guineensis with 15 samples.

Results

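The oil palm (Elaeis guineensis) drops its ripe fruit at the abscission zone (AZ), a few layers of cells at the fruit base that separate from each other when pectin and other wall polymers between them are degraded. Ethylene, a plant hormone made during ripening, brings this separation forward in ripe fruit. The study took the immature zone, already laid down at the fruit base but not shedding, as a comparison for the ripe one.

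A set of 42 contigs, of 51804 in all, is described here. A contig is a stretch of transcript assembled from overlapping reads, and the number of reads of a library that fall in it stands for the level of that transcript. The set was chosen by measured values. Each member had at least 50 reads over the 4 libraries of the immature zone, and a pooled rate there (reads in the contig over the reads of those libraries) at least 8 times that of ripe AZ and of ripe pedicel, where a tissue with no read was counted as having 1. CL1Contig9771, an alpha carbonic anhydrase contig that meets the rule, was left out; it had 0, 48, 8 and 1277 reads in AZ30 at 0, 3, 6 and 9 h, against 1, 7, 13 and 68 in AZ150 and 7, 61, 127 and 5 in P150. Since the rule used the tissue levels, those levels are a description and carry no test.

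Fruit bunches came from 1 tenera clone, and the fruit were exposed to 10 µl/l ethylene for 3, 6 or 9 h or left untreated (0 h). The immature zone (AZ30) was the base of fruit at 30 days after pollination (DAP), the ripe zone (AZ150) was the base of fruit at 150 DAP, and the ripe pedicel (P150) was the adjacent stalk tissue at 150 DAP. A single library was made for each tissue and hour, 12 in all, and pyrosequenced, so no value below has a replicate and every test compares libraries, not conditions. Untreated tissue was sequenced at 0 h alone, which means that an effect of ethylene and of the hours that passed cannot be told apart. No other tissue of 30 DAP fruit was sequenced either, so the members mark the immature fruit base against ripe tissue, and its age and its cell type cannot be told apart. The dissected base can hold mesocarp and pedicel cells beside the zone, and in such bulk tissue fewer cells of a type and less RNA per cell cannot be told apart.

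Depth differed between libraries. The AZ30 libraries held 26560, 108374, 78309 and 214449 reads in contigs at 0, 3, 6 and 9 h, the AZ150 libraries 56408 to 127153 and the P150 libraries 41588 to 302391. A single read was worth 3.77 per 100000 reads in the untreated AZ30 library, the shallowest of the 12, and a count of 0 there allows a rate of up to 11.3 per 100000 (3 reads). Intervals and such limits cover counting error only.

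Contigs of genes linked with the oil palm zone are described beside the label of the tissue. The study picked EgPGAZ1 and EgPG4 from these same libraries in part because AZ150 differed from both P150 and AZ30. Its screen also asked for a change over the hours in AZ150 and a like profile in fruit shed naturally in the field. EgPG4 was already known from earlier work. The contigs were also chosen with earlier results of these data known, so their counts are a description and no check of the label. EgPGAZ1, a polygalacturonase of the zone, had 0, 3, 0 and 54 reads at 0, 3, 6 and 9 h in AZ30, against 0, 28, 24 and 262 in AZ150 and 0, 0, 1 and 2 in P150 (CL1Contig6920). EgPG4, a polygalacturonase that is also expressed in ripening mesocarp, had 0, 0, 1 and 100 reads at 0, 3, 6 and 9 h in AZ30, against 2, 22, 56 and 397 in AZ150 and no read in P150 (CL1Contig10800). CL1Contig22894, a SEPALLATA3-like MADS-box factor, had 3, 15, 6 and 41 reads in AZ30, against 31, 25, 65 and 131 in AZ150 and none in P150. All 3 thus had reads in both zones, with 3 reads in all in the pedicel libraries, and the MADS-box contig was present in AZ30 before treatment. Word lists for other tissues of a fruit base could hold no member, since no member was annotated in the tables used here. They were drawn from contigs that the study annotated because they changed in AZ150. Their summed rates per 100000 reads were 7.25 in AZ30, 10.5 in AZ150 and 4.83 in P150 for mesocarp oil (1 contig), 49.8, 116 and 55.5 for mesocarp carotenoids (7 contigs), 1.64, 19.7 and 3.79 for green tissue (1 contig), 279.6, 286 and 206 for dividing tissue (12 contigs), and 128, 182 and 60.2 for xylem and lignin (8 contigs). None of these pooled rates was higher in AZ30 than in both ripe tissues. In the untreated libraries alone, dividing tissue stood at 188 in AZ30, 125 in AZ150 and 141 in P150, and mesocarp oil at 15.1, 4.87 and 6.33. The mesocarp oil value in AZ30 rests on 1 contig in the shallowest library. The other lists were not highest in untreated AZ30. In the same order, mesocarp carotenoids stood at 22.6, 23.4 and 9.95 and green tissue at 0, 37.0 and 8.14. Xylem and lignin stood at 11.3, 95.5 and 25.8.

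No gene name is given to the 42 members here. One of the annotation tables was used in a shortened copy, which covers only part of its contigs. Of the 1050 contigs in the tables as used, 424 had at least 50 reads in AZ30, and 0 of these were members, so the annotation of the members was not analysed here. For the same reason no member could be joined to a transcript of the field libraries, and no sequence of a contig was at hand to print. The members are therefore described by their identifiers and by their profiles over tissues and hours.

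Together the members took 1.85% of all AZ30 reads, 0.0943% of AZ150 reads and 0.0760% of P150 reads. They held 7894 reads in AZ30, or 1846 per 100000, against 350 reads and 94.3 per 100000 in AZ150 and 582 reads and 76.0 per 100000 in P150. Their summed rate in AZ30 was 1276 per 100000 at 0 h, 1365 at 3 h, 1615 at 6 h and 2243 at 9 h. In AZ150 it was 73.1, 142, 37.7 and 128 at the same hours, and in P150 it was 66.9, 134, 45.3 and 69.7. The lowest AZ30 library thus stood above the highest ripe library in the summed rate, and both ripe tissues had their highest value at 3 h. Without CL1Contig22979, the most abundant member (left out after seeing the data), the AZ150 value at 3 h was 53.2, below the 67.2 at 0 h and the 61.3 at 9 h, while P150 kept its highest value at 3 h, at 75.9.

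With all contigs of at least 50 AZ30 reads as the background, the highest AZ30 rate fell at 0 h for 10 members (background 19.6%), at 3 h for 5 (23.1%), at 6 h for 9 (22.7%) and at 9 h for 18 (34.6%).

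Single members differed widely in abundance. Their AZ30 reads ran over a range of 52 to 1658 with a median of 121, against a median of 80 for all 1501 contigs with at least 50 reads in AZ30. Of the members, 3 had no read in either ripe tissue, 10 more had none in AZ150 and 1 more had none in P150, while 28 had reads in both. Fewer than 10 reads were found in the ripe tissues together for 22 members. At matched hours, 25 of 42 members had a higher rate in AZ30 than in both ripe tissues at 0 h, 42 at 3 h, 38 at 6 h and 42 at 9 h. The lower number at 0 h went with 15 members that had no read in the shallow untreated AZ30 library.

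**Figure D1:**
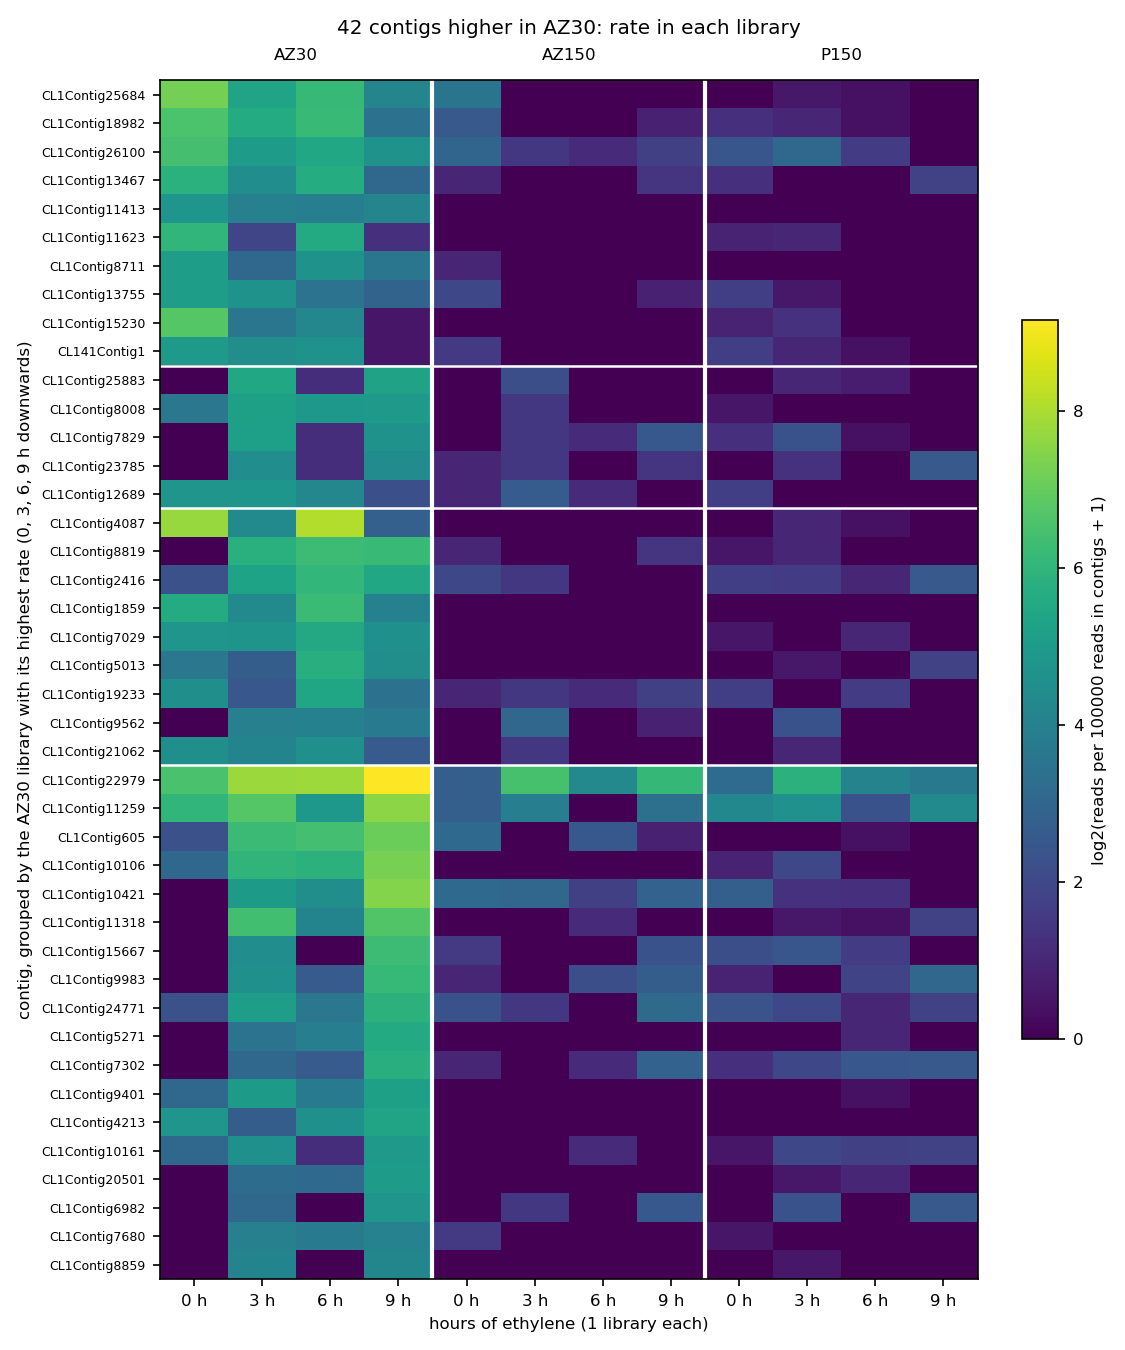
Rate of each of the 42 contigs in each of the 12 libraries, as log2 of reads per 100000 reads plus 1, with AZ30 at the left and AZ150 and P150 to its right, each in the order 0, 3, 6 and 9 h. Rows are grouped by the AZ30 library with the highest rate, which was 0 h for 10 contigs, 3 h for 5, 6 h for 9 and 9 h for 18, and 15 contigs have no read in AZ30 at 0 h and 3 have none at 6 h, while most cells of the ripe tissues are dark.

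The most abundant member by far was CL1Contig22979. It had 24, 239, 177 and 1218 reads in AZ30 at 0, 3, 6 and 9 h, or 90.4, 221, 226 and 568 per 100000. In AZ150 it had 6, 50, 16 and 85 reads (5.85, 88.6, 18.9 and 66.8 per 100000), and in P150 18, 116, 49 and 5 (8.14, 57.9, 16.2 and 12.0 per 100000). The AZ30 value was the highest at each hour, and the 3 h libraries of both ripe tissues stood well above their 0 h libraries. This contig alone gave 157 of the 350 member reads in AZ150 and 188 of the 582 in P150.

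CL1Contig11259 was the next most abundant. Its AZ30 libraries held 17, 115, 22 and 403 reads at 0, 3, 6 and 9 h (64.0, 106, 28.1 and 188 per 100000), against 6, 8, 0 and 12 in AZ150 and 40, 47, 12 and 8 in P150. The 6 h library was the lowest in all 3 tissues. Of the ripe tissues, the pedicel had the higher pooled rate, 14.0 per 100000, against 7.01 in AZ150.

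The following 3 members in abundance were low or absent in untreated AZ30. CL1Contig605 had 1, 81, 66 and 295 reads in AZ30 at 0, 3, 6 and 9 h (3.77, 74.7, 84.3 and 138 per 100000), against 8, 0, 4 and 1 in AZ150 and 0, 0, 1 and 0 in P150. CL1Contig10106 had 2, 67, 45 and 328 reads in AZ30, against none in any AZ150 library and 2, 6, 0 and 0 in P150. CL1Contig10421 had 0, 33, 17 and 378 reads in AZ30, against 8, 4, 2 and 8 in AZ150 and 13, 3, 4 and 0 in P150. At 0 h the rates of CL1Contig605 and CL1Contig10421 in AZ30, 3.77 and 0 per 100000, were below the 7.80 of both in AZ150. That order rests on 1 and 0 reads in the shallow untreated AZ30 library, where a count of 0 allows up to 11.3 per 100000, and is not firm. For CL1Contig605 and CL1Contig10421, an AZ30 rate above both ripe tissues was seen only in the treated libraries. CL1Contig10106 stood at 7.53 per 100000 in untreated AZ30, from 2 reads, against 0 in AZ150 and 0.904 in P150.

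Without any read in the ripe tissues were CL1Contig1859, with 13, 21, 58 and 33 reads in AZ30 at 0, 3, 6 and 9 h, CL1Contig4213, with 7, 6, 18 and 84, and CL1Contig11413, with 7, 16, 11 and 36. Against the limit of 3 reads over the 4 libraries of a tissue, the pooled AZ30 rate of CL1Contig1859 was at least 36.1-fold higher than in AZ150 and at least 74.6-fold higher than in P150. For CL1Contig4213 these bounds were 33.2-fold and 68.6-fold, and for CL1Contig11413 they were 20.2-fold and 41.8-fold. All 3 had reads in each AZ30 library, the untreated one included.

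The threshold of 8 runs through a continuous range. Just inside it were CL1Contig6982, with a smaller ratio of 8.05 (to AZ150), and CL1Contig26100, with 8.43 (to P150). Just outside were CL1Contig4774, at 7.94, and CL1Contig20397, at 7.88, both limited by P150. CL1Contig6982 had 0, 8, 0 and 57 reads in AZ30 at 0, 3, 6 and 9 h and CL1Contig26100 had 23, 35, 34 and 54, so contigs at the edge of the set had unlike time courses.

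Time within AZ30 was not part of the rule, although pooling gives the deep 9 h library the most weight. That library held 60.9% of the members' AZ30 reads, 54.7% of those of all contigs with at least 50 AZ30 reads and 50.1% of all AZ30 reads. Without it, 30 contigs passed the rule, of which 18 were among the 42. With the read minimum set aside, 33 of the 42 members stayed at 8-fold or more without the 9 h library, 40 or 41 without any one of the others, and 29 whichever library was left out.

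Differences from the untreated library were called with the exact test of Audic and Claverie, two-sided, which sets the reads of a contig in 1 library against those in another given both totals, at p under 0.01 without adjustment. At 3 h, 22 of 42 members were called, 11 higher and 11 lower than at 0 h, against 15.3% of contigs with at least 50 AZ30 reads (8.28% higher, 7.01% lower). At 6 h, 8 of 39 members with a read were called, 6 higher and 2 lower, against 8.94% (4.13% higher, 4.81% lower). At 9 h, 30 of 42 were called, 17 higher and 13 lower, against 29.2% (15.7% higher, 13.6% lower). Members with at least 100 AZ30 reads were called in 16 of 23 cases at 3 h, 6 of 22 at 6 h and 19 of 23 at 9 h, beside 31.8%, 16.1% and 49.4% of all contigs of that depth. The members thus lay on both sides of the untreated library, and their share of calls was above the background share at each hour. The calls use the same AZ30 reads that the rule summed, so these shares are a description.

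Over the 3 treated libraries, 33 of 42 members were called at least once, against 37.2% of contigs with at least 50 AZ30 reads. Of these, 18 were higher and 15 lower, and none was higher at one hour and lower at another. Of the 558 background contigs called, 312 were higher, 241 were lower and only 5 went both ways. With p adjusted over all contigs with a read (Benjamini-Hochberg, under 0.05), 11 members were called at 3 h, 5 at 6 h and 26 at 9 h, beside 6.68%, 2.23% and 21.5% of contigs with at least 50 AZ30 reads. The split between higher and lower depended on the scaling. TMM scaling, which assumes that most contigs do not differ, moved every AZ30 log2 ratio to 0 h up by 0.46 at 3 h, 0.39 at 6 h and 0.57 at 9 h. The higher and lower calls among members were then 17 and 4 at 3 h, 8 and 1 at 6 h and 22 and 10 at 9 h. With this scaling 1 member, CL1Contig4087, did go both ways, beside 11 of the 689 background contigs called. The background shares were 18.7% at 3 h (15.6% higher, 3.14% lower), 11.9% at 6 h (9.88% and 2.03%) and 35.2% at 9 h (27.4% and 7.79%).

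**Figure D2:**
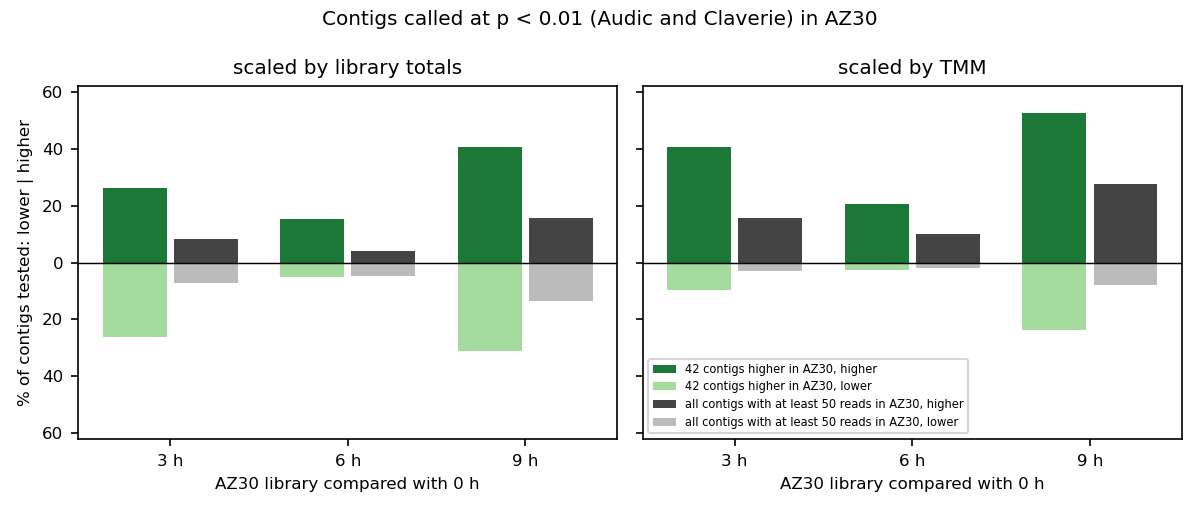
Percent of tested contigs called higher (above the zero line) or lower (below it) at 3, 6 and 9 h than at 0 h in AZ30, for the 42 contigs (green) and for all contigs with at least 50 AZ30 reads (grey), with counts scaled by library totals at the left and by TMM at the right. The green bars exceed the grey bars in both directions at 3 and 9 h, and TMM scaling moves calls from lower to higher in both sets.

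Higher at all 3 treated hours were CL1Contig22979, CL1Contig605, CL1Contig10106, CL1Contig2416 and CL1Contig8819. These were 5 of 42 members, beside 18 of the 1501 contigs with at least 50 AZ30 reads. With TMM scaling there were 6 such members, beside 39 of the 1501. At 9 h the rate of CL1Contig22979 was 6.29 times that at 0 h (exact 95% interval 4.20 to 9.85, exact Audic and Claverie test, p = 8.94e-35). The ratio was 20.3 for CL1Contig10106 (5.58 to 168, p = 2.89e-14 by the same exact test), which had 2 reads at 0 h. For CL1Contig605, with 1 read at 0 h, it was 36.5, with a lower bound of 6.51 (exact Audic and Claverie test, p = 6.57e-14). CL1Contig11259 was called only at 9 h, at 2.94 times the untreated rate (1.81 to 5.09, p = 4.21e-07 by this exact test).

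A group of 15 members had no read at all in untreated AZ30, or 35.7% of the set, beside 14.5% of contigs with at least 50 AZ30 reads. At 9 h, 11 of the 15 were called higher, beside 64.2% of the 218 background contigs with no read at 0 h. Contigs picked in this way could be called only as higher, so the count is a description. CL1Contig10421, the most abundant of them, was at least 15.6-fold higher at 9 h, taking 3 reads as the limit at 0 h (exact Audic and Claverie test, p = 1.21e-19). Chosen after their values were seen, CL1Contig11318 had 0, 89, 13 and 214 reads at 0, 3, 6 and 9 h and CL1Contig8819 had 0, 59, 60 and 151, which put them at least 8.83-fold and at least 6.23-fold higher at 9 h. The first was low at 6 h, and the second had rates of 54.4, 76.6 and 70.4 per 100000 over the treated hours. With the untreated library as shallow as it was, a rate of up to 11.3 per 100000 at 0 h could not have been told from none.

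The opposite course was found for 13 members that were lower at 9 h, among them 9 of the 10 with their highest rate in the untreated library (46.6% of the 294 background contigs with that peak). A contig that peaks at 0 h can be called only as lower, and this count too is a description. CL1Contig15230 had 28, 12, 14 and 1 reads in AZ30 at 0, 3, 6 and 9 h, or 105, 11.1, 17.9 and 0.466 per 100000, against none in AZ150 and 2, 3, 0 and 0 in P150. Its ratio at 9 h to 0 h was 0.00442 (0.000108 to 0.0268, exact Audic and Claverie test, p = 8.97e-27), and it was lower at all 3 treated hours. CL141Contig1 had 8, 24, 19 and 1 reads, with no call at 3 or 6 h and a ratio of 0.0155 at 9 h (0.000349 to 0.115, p = 4.32e-08 by the same exact test). In these contigs a transcript that was plain in untreated immature fruit base was close to the limit of 1 read in the deepest AZ30 library.

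The other contig lower at all 3 treated hours, CL1Contig25684, was chosen after its values were seen because both zones carried it. It had 40, 43, 54 and 36 reads in AZ30 at 0, 3, 6 and 9 h (151, 39.7, 69.0 and 16.8 per 100000), against 11, 0, 0 and 0 in AZ150 and 0, 1, 1 and 0 in P150. It was called lower at 3, 6 and 9 h in AZ30 and at 6 and 9 h in AZ150, and its AZ150 reads were all in the untreated library. Under TMM the AZ30 call at 6 h was lost (p = 0.0138 by the exact Audic and Claverie test), which left 1 member lower at all 3 treated hours. Of the 1501 contigs with at least 50 AZ30 reads, 21 were lower at all 3 hours with library totals and 8 with TMM. CL1Contig26100, at the edge of the set, was lower at 3 and 9 h in AZ30.

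**Figure D3:**
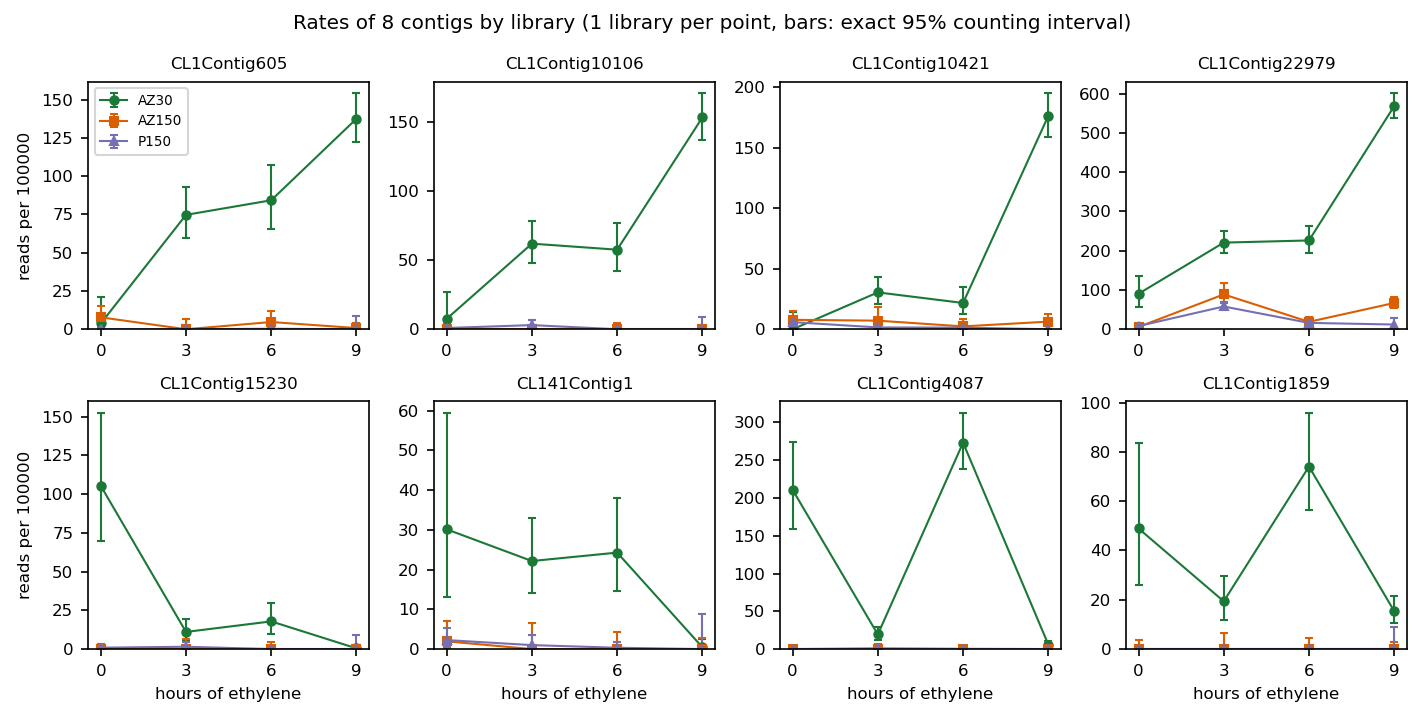
Reads per 100000 reads against hours of ethylene for 8 of the contigs, each on its own scale, in AZ30 (green circles), AZ150 (orange squares) and P150 (violet triangles), with exact 95% counting intervals and 1 library per point. The upper panels show contigs higher in AZ30 at 9 h than at 0 h, and the lower panels contigs lower at 9 h (CL1Contig1859 only without TMM scaling), of which CL1Contig4087 and CL1Contig1859 also show high 0 and 6 h libraries beside low 3 and 9 h libraries.

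The AZ30 libraries did not follow the hours in order. In 18 of 42 members (42.9%) the rates at 3 and 9 h were both above those at 0 and 6 h, beside 32.7% of contigs with at least 50 AZ30 reads, and in 13 members (31.0%, beside 16.8%) the rates at 0 and 6 h were both above those at 3 and 9 h. The remaining 11 members divided among the other 4 orders, with 6 of them higher at 6 and 9 h. The clearest case of the second order, chosen after its values were seen, was CL1Contig4087, with 56, 21, 214 and 13 reads at 0, 3, 6 and 9 h, or 211, 19.4, 273 and 6.06 per 100000. It had no read in AZ150 and 3 in P150. At 3 and 9 h it was lower than at 0 h by the exact Audic and Claverie test (p = 6.98e-24 and 5.44e-42), and at 6 h it was not called (p = 0.0856), though TMM scaling made it higher there (p = 0.000278).

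**Figure D4:**
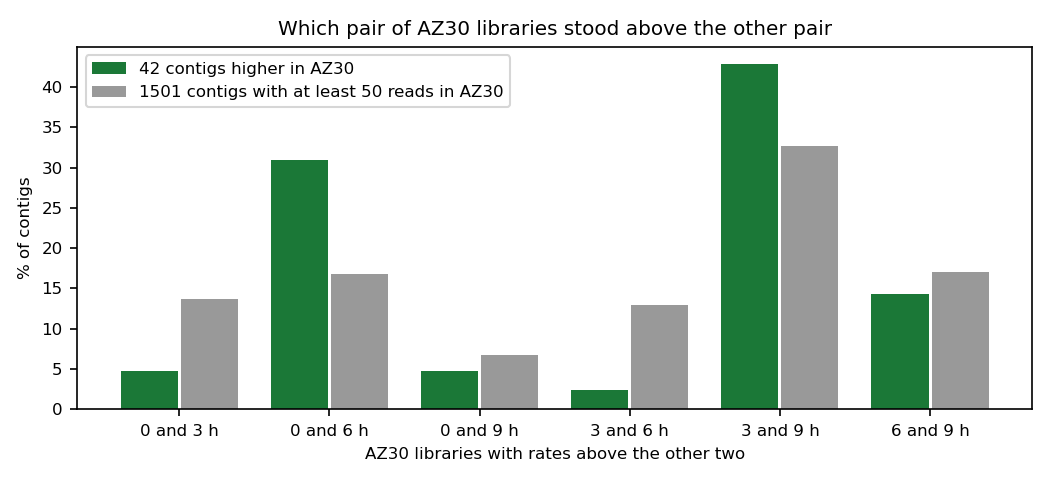
Percent of contigs whose AZ30 rates in the named pair of libraries were both above those in the other pair, for the 42 contigs (green) and all 1501 contigs with at least 50 AZ30 reads (grey). The green bars are tallest for 3 and 9 h (42.9%) and for 0 and 6 h (31.0%).

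Across the 42 members, Spearman's rho between AZ30 libraries was 0.64 for 0 and 6 h and 0.49 for 3 and 9 h, against 0.05 for 0 and 3 h, 0.28 for 3 and 6 h, -0.07 for 6 and 9 h and -0.47 for 0 and 9 h. Over the 1501 contigs the same values were 0.61, 0.32, 0.47, 0.43, 0.11 and -0.01. These describe contigs of shared libraries, which are not independent replicates. In the wider set 0 h was likewise closest to 6 h, whereas 3 h was closer to 0 and 6 h than to 9 h. Depth alternated in the same way, with 26560 and 78309 reads at 0 and 6 h and 108374 and 214449 at 3 and 9 h, and its part in these orders was not tested. They bear on every comparison with the single 0 h library. With the 3 h library as the reference, 19 members differed at 6 h (9 higher, 10 lower, beside 29.4% of contigs with at least 50 AZ30 reads), and at 9 h 23 differed (14 higher, 9 lower, beside 35.4%). With the 6 h library as the reference, 32 differed at 9 h (19 higher, 13 lower, beside 43%).

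A fit over all 12 libraries that treats 3, 6 and 9 h as repeats of 1 treated state called none of the 35 members it could test. In that edgeR quasi-likelihood test, 0 of 10762 contigs passed an adjusted p of 0.05 (0% called), and DESeq2 called 1 contig (0.00929%) and no member. At an unadjusted p under 0.05, 13 members (12 higher, 1 lower) and 629 contigs, or 5.84%, were counted, and with DESeq2 8 members, beside 2.1%. The read filter asked for 3 or more reads in 4 or more libraries. Of the 35 tested members, 26 met it only with the help of AZ30, so these shares and the medians below are a description. The member with the smallest p was CL1Contig605, at a log2 ratio of 5.16 (edgeR adjusted p = 0.723). The median log2 ratio was 1.27 over the tested members and 1.60 over all tested contigs, and their order depended on the setting. With DESeq2 they were 0.93 and 0.73. Without the AZ30 3 h library they were 2.66 and 1.48, with only 19 members tested. Without the 9 h library they were 0.82 and 1.16, with 21 members tested. Those medians cover fewer members than the 35, so their shift cannot be read as an effect of the library left out. The lone 0 h library was assumed in this fit to vary like the treated ones.

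In the ripe tissues few members were called. In AZ150, 3 of 29 members with reads were called at any hour, against 45.0% of contigs with at least 50 AZ30 reads. They were CL1Contig22979 (higher at 3 and 9 h), CL1Contig25684 (lower at 6 and 9 h) and CL1Contig605 (lower at 9 h). In P150, 6 of 38 were called, against 63.1%, with CL1Contig22979, CL1Contig6982 and CL1Contig9562 higher at 3 h, CL1Contig6982 and CL1Contig23785 higher at 9 h, and CL1Contig10421 and CL1Contig11259 lower at 6 h. Only CL1Contig22979 was higher in all 3 tissues at 3 h. The rule keeps the ripe counts low, and low counts give few calls, so these shares cannot be read against the background.

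The contrast of the ripe tissues with each other was not used by the rule. Over the 42 members, 21 had a higher pooled rate in AZ150 than in P150 and 18 had a lower one. In the edgeR fit with tissue and hours as terms, 1 of 35 tested members passed an adjusted p of 0.05, beside 0.669% of 10762 contigs. Of the 35, 26 had fewer than 4 ripe libraries with 3 reads or more and so met the read filter only with the help of AZ30, and 9 had no such ripe library, so this share is not read against the background. The member that passed was CL1Contig605, with 13 reads in AZ150 and 1 in P150, at a log2 ratio of AZ150 to P150 of 4.03 (edgeR adjusted p = 0.00837). It was itself among the 26 that met the filter only with the help of AZ30, so its call is a description. That call rested on few reads, 8 of them in the untreated AZ150 library. Without the 0 h libraries its log2 ratio was 2.74 (adjusted p = 0.588 with edgeR), with DESeq2, which called 0.53% of contigs, 4.15 (adjusted p = 0.565), and without the 6 h libraries it no longer passed the read filter. At an unadjusted p under 0.05, 6 members were counted (2 higher in AZ150, 4 lower), beside 6.94% of contigs, and this share is likewise not read against the background. CL1Contig25684 was the other higher one, at a log2 ratio of 2.88 (edgeR adjusted p = 0.230).

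**Figure D5:**
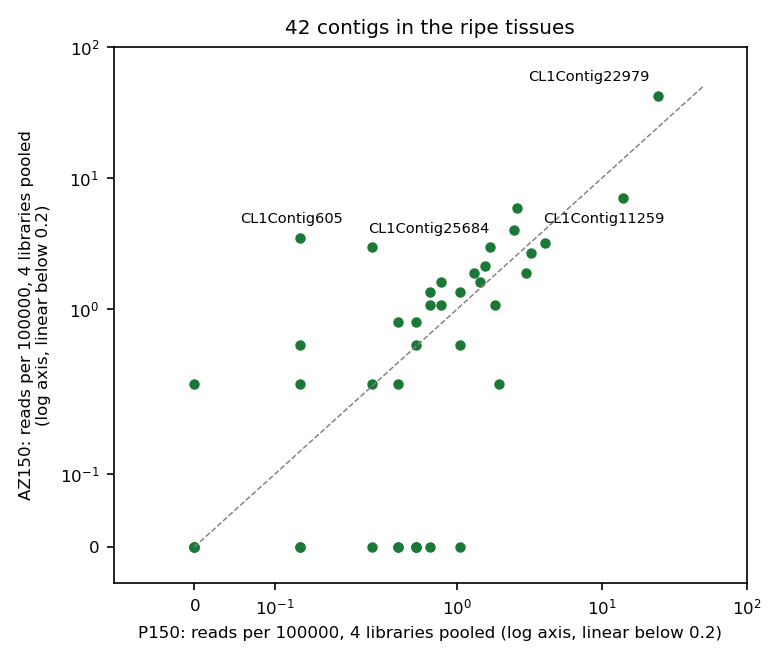
Pooled rate of each of the 42 contigs in AZ150 (vertical) against P150 (horizontal), in reads per 100000 over 4 libraries on log axes that are linear below 0.2, with the line of equal rates dashed. Members lie on both sides of the line, 21 higher in AZ150 and 18 higher in P150. CL1Contig605 is the one that the edgeR test called, though it met the read filter only with the help of AZ30.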

How the data were processed

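The authors assembled the pyrosequencing reads of 12 libraries into contigs and deposited raw counts of reads per contig. They also deposited RPKM values of 3 field libraries, made with cutadapt, BWA and SAMtools (versions not given in the sources used here), which could not be joined to the members. Another 17 columns beside the counts were not used. For the pedicel, the age of 150 DAP in the labels was used, where the methods text has 30 DAP. Rates are per 100000 of a library's reads in contigs. Libraries were compared with the exact two-sided Audic and Claverie test on all contigs with a read, called at p under 0.01, and with edgeR 4.0.16 (TMM, quasi-likelihood) and DESeq2 1.42.0 after a filter (3 or more reads in 4 or more libraries), called at a Benjamini-Hochberg adjusted p under 0.05. Python 3.11.15, scipy 1.17.1 and R 4.3.3 were used. The tests were also run on simulated counts. For the Audic and Claverie test these counts held counting error only, so that run does not cover variation between libraries. Rates carry exact binomial intervals and ratios exact conditional ones. Named contigs are the 5 most abundant members, the 2 largest and 2 smallest called ratios of 9 h to 0 h, the 2 nearest the threshold on each side and the 2 most abundant with no ripe read. Others are said to be chosen after their values were seen or are listed with a count. The members, lists and rules were chosen with earlier results of these data known.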

Additional observations from a re-analysis of the deposited data

Results flagged for a closer look

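For 6 members every treated AZ30 library stood above its 0 h library while every treated library of a ripe tissue stood below its own. No share over all contigs was taken for this pattern, so the count is a description. The 6 members were CL1Contig605, CL1Contig2416, CL1Contig10421 and CL1Contig7680 against AZ150, and CL1Contig10421, CL1Contig24771, CL1Contig8008 and CL1Contig7680 against P150. The difference between the effects in the edgeR fit had an adjusted p of 0.824 for the first 3 against AZ150 (unadjusted p = 0.00032 for CL1Contig605, 0.00192 for CL1Contig2416 and 0.00203 for CL1Contig10421). It was 0.825 for the first 3 against P150 (edgeR, unadjusted p = 0.000253 for CL1Contig10421, 0.0195 for CL1Contig24771 and 0.0453 for CL1Contig8008), so none passed. CL1Contig7680, with 2 reads in AZ150 and 1 in P150, did not meet the read filter and its difference was not tested. With edgeR, 0 of 10762 contigs passed in either difference, with 495 and 488 at an unadjusted p under 0.05, and DESeq2 called none. CL1Contig10421 had no read at 0 h in AZ30 and none at 9 h in P150. CL1Contig7680 also had no read at 0 h in AZ30, and CL1Contig8008 had 1 read in all of P150, at 0 h. CL1Contig24771 had 1, 36, 9 and 125 reads in AZ30 at 0, 3, 6 and 9 h, against 9, 6, 3 and 1 in P150.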

How the results depend on the processing

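The set held 65 contigs with a minimum of 30 AZ30 reads, 23 with 100, 84 at 4-fold and 25 at 16-fold, and 40 to 43 with other totals or floors. With 1 library of AZ30 or 1 time left out it held 29 to 40. The unweighted mean of the library rates also gave 42, of which 33 were shared. Adjustment moved the calls in AZ30 to 11 (Benjamini-Hochberg) and 5 (Bonferroni) at 3 h, to 5 and 3 at 6 h, and to 15 (Bonferroni) at 9 h. A rate ratio of 2 gave 14 members at 6 h, and the 3 h library as the reference, chosen after seeing the data, gave 19. No share over all contigs was taken for the Bonferroni and rate ratio counts, so those counts are a description. Of AZ150 against P150, 0 members were called with DESeq2 or with a filter of 1 read in 4 libraries (edgeR), and 0 to 1 with 1 time left out. With 1 time left out, only 17 to 20 members met the read filter. CL1Contig1859 was not called at 9 h with TMM (p = 0.0202, exact Audic and Claverie test). CL1Contig605 had a log2 ratio of 3.90 (edgeR adjusted p = 0.0929) with the 1 read filter. The cause was not tested. No called direction turned among the alternatives run against 0 h, but TMM turned the sign of uncalled log2 ratios to 0 h in AZ30 for 6 members at 3 h, 3 at 6 h and 1 at 9 h. The field alternatives were not run, since no member was joined to a field transcript. No analysis paired by replicate was possible because each tissue and time has 1 library, so no replicate numbers pair samples. The edgeR fit of AZ150 against P150 has the hour as a term.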
